A study of Mus musculus with 18 samples.

Results

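The genes described here are Nr4a1, Nr4a2 and Nr4a3, which make up the NR4A family of nuclear receptors, and Arc, a gene of the synapse. They were taken from the count table by symbol, and all 4 were found among 25897 gene symbols. Nr4a1, Nr4a2 and Arc passed the filter on low counts and were tested with 14128 genes in all. Nr4a3 did not pass it and is given as counts.

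The study counted newly made RNA in E14tg2a cells, a mouse embryonic stem cell line of 129SV background, to follow the ERK signalling pathway. All cells lacked the endogenous Med24 gene and carried a tetracycline-regulated FLAG-Med24 cDNA together with cRAF-ErT2-T2A-RTTA, a RAF kinase that 4-hydroxytamoxifen (4OHT) switches on and that in turn activates ERK. For several passages KO cells grew without doxycycline, so that the cDNA was not induced, whereas WT cells received 500 nM doxycycline and expressed it. WT cells are thus rescued cells, and effects of doxycycline cannot be told apart from those of Med24. Both kinds of cell spent 24 h in serum and LIF with 250 nM PD173074, an inhibitor of FGF receptors, after growth with 2 uM Chir99021, an inhibitor of the kinase GSK3. There were 6 groups of 3 libraries, from clones A, B and C each: KO cells at 0, 2 and 8 h of 250 nM 4OHT, and WT cells at the same times. RNA made in the last 15 min was labelled with 5 mM ethynyl uridine and captured, so the counts describe synthesis in that window more than the RNA that had accumulated.

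NR4A proteins are orphan nuclear receptors. Their ligand pocket is filled by bulky side chains, and their activity is thought to follow mainly from how much of the protein a cell makes. They bind DNA as monomers at the element AAAGGTCA, called NBRE, and they are induced within minutes to hours by growth factors, antigen receptors, calcium and cAMP, which places them among the immediate early genes. Nr4a1 is best known from T cell receptor signalling and thymocyte death, and Nr4a2 from the development of midbrain dopamine neurons. Arc is an immediate early gene of neurons. Its protein acts in the endocytosis of AMPA receptors, descends from the Gag protein of a retrotransposon and can form capsid-like particles that carry RNA. Mediator, of which Med24 is a tail subunit, links transcription factors at enhancers and promoters to RNA polymerase II.

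In GENCODE's annotation of GRCm38, Nr4a1 lies on the plus strand of chromosome 15 (101254269 to 101274795) and Arc on the minus strand of the same chromosome (74669083 to 74672570). Nr4a2 lies on the minus strand of chromosome 2 (57106830 to 57124003) and Nr4a3 on the plus strand of chromosome 4 (48045153 to 48086447). No annotated gene overlaps any of the 4. RefSeq promoters (GRCm38.p6) were at hand for Nr4a1, Nr4a2 and Nr4a3. The RefSeq starts of Nr4a1 and Nr4a3 lie inside the GENCODE spans given above, and that of Nr4a2 lies at the edge of its span. The 250 bases before each start are shown because these 3 promoters carry the same short element at similar numbers, while the genes differed in their response. Capitals mark each TGACG, the core of the cAMP response element bound by CREB and ATF proteins, or its complement CGTCA.

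Nr4a1 (chr15:101266596-101266845, plus strand): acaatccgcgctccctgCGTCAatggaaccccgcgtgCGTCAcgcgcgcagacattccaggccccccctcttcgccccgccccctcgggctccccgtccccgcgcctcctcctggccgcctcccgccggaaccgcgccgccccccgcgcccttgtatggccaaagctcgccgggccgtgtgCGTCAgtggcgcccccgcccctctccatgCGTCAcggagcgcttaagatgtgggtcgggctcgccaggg
Nr4a2 (chr2:57124004-57124253, minus strand): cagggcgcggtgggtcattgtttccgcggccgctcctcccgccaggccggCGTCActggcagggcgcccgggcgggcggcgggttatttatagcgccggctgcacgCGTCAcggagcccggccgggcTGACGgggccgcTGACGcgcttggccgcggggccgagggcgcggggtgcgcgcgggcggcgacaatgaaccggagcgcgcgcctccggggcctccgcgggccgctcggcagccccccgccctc
Nr4a3 (chr4:48045055-48045304, plus strand): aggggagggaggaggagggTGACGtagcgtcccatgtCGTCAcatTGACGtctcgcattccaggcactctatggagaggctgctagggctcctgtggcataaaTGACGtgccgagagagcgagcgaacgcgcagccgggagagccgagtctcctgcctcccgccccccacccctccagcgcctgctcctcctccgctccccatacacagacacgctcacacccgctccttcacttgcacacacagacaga

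Each of the 3 promoters held 4 such cores. Counted back from the first transcribed base in RefSeq, the cores began at -233, -213, -69 and -40 in Nr4a1. They began at -200, -144, -123 and -111 in Nr4a2, and at -231, -213, -205 and -147 in Nr4a3. Over windows from 250 bases before to 50 after the start, searched on both strands, 20.8% of 32851 promoters held at least 1 core and 0.231% held at least 4. The complete palindrome TGACGTCA (in 1.79% of promoters), the CArG box bound by SRF (1.63%), the EGR element GCGTGGGCG (0.612%), the AP-1 element TGANTCA (7.81%), the ETS element CCGGAAG (8.86%) and the NBRE (1.51%) had no match in these 3 windows. TATAAA, present in 13.6% of promoters, was found once, on the complementary strand of the Nr4a2 window at -164 to -159. A match here describes the letters of the sequence and not a bound site.

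Library totals ranged from 6691177 to 14541145 counts, and a count of 0 leaves room for up to 3 counts, or 0.196 to 0.629 CPM (library-scaled read counts after TMM, as edgeR gives them). These limits cover counting error only. Med24 read 38.9 ± 3.1, 46.5 ± 3.1 and 39.3 ± 4.7 CPM in KO cells at 0, 2 and 8 h and 548 ± 47, 1635 ± 129 and 404 ± 4.0 CPM in WT cells (SD, n = 3), and was thus low in every library labelled KO. In WT cells it was not constant, with log2 fold changes of 1.58 at 2 h over 0 h and -2.02 at 8 h over 2 h. Whether this bears on the differences between KO and WT cells was not tested. In 3 libraries (KO 2 h clone A, KO 8 h clones B and C) a set of 13 abundant genes that move with Cdk8 held 34.2 to 43.9% of the counts, against 17.7 to 24% in the other 15. The KO values at 2 and 8 h are therefore also given without these 3 libraries, which leaves the KO 8 h group with clone A alone. The 8 embryonic stem cell markers were all present, at a summed 1460 to 2120 CPM over all libraries. In KO libraries they summed to 1680 to 1750, 1670 to 1850 and 1780 to 2120 CPM at 0, 2 and 8 h. In WT libraries the sums were 1780 to 1820, 1460 to 1520 and 1630 to 1700 CPM. KO was thus below WT at 0 h and above it at 2 and 8 h. The 6 fibroblast markers summed to at most 1 CPM at 0 h, 6.26 to 7.88 CPM at 2 h and at most 2.73 CPM at 8 h.

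Nr4a1 RNA synthesis rose with 4OHT in both kinds of cell, and in KO cells it rose much less. In KO cells clones A, B and C read 59.1, 59.5 and 58.2 CPM at 0 h, 75.7, 72.6 and 76.9 CPM at 2 h and 77.5, 77.7 and 85.1 CPM at 8 h. In WT cells they read 60.2, 55.8 and 48.6 CPM at 0 h, 120, 131 and 130 CPM at 2 h and 135, 139 and 135 CPM at 8 h. The KO and WT libraries overlapped at 0 h, and at 2 and 8 h every KO library was below every WT library.

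By edgeR's quasi-likelihood test with Benjamini-Hochberg adjustment over 14128 genes, Nr4a1 at 2 h over 0 h had a log2 fold change of 0.35 ± 0.064 in KO cells (SE, 1.27-fold, adjusted p = 1.98e-05) and 1.22 ± 0.062 in WT cells (2.32-fold, adjusted p = 4.43e-17). Most genes changed in these comparisons: 66.6% of genes tested were called at 2 h over 0 h in KO cells and 66.2% in WT cells, at an adjusted p under 0.05. At 8 h over 0 h Nr4a1 stood at 0.43 ± 0.065 in KO cells (adjusted p = 1.19e-06, 57.8% of genes called) and 1.31 ± 0.061 in WT cells (adjusted p = 4.09e-18, 61.9% called). No change of 8 h over 2 h was called: it was 0.09 in KO cells (95% interval -0.04 to 0.22, adjusted p = 0.26) and 0.10 in WT cells (-0.02 to 0.21, adjusted p = 0.128). In both kinds of cell every 8 h library was nonetheless slightly above every 2 h library. When libraries were scaled by their totals alone, the median of all genes fell by 0.332 at 2 h and by 0.381 at 8 h in KO cells, and Nr4a1 in KO cells then stood at 0.06 (adjusted p = 0.691) and 0.07 (adjusted p = 0.659), no longer called but still above that median.

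Between KO and WT cells Nr4a1 differed by 0.11 ± 0.067 at 0 h (95% interval -0.03 to 0.24, adjusted p = 0.315), where 16.4% of genes were called. It was lower in KO cells, with -0.76 ± 0.060 at 2 h (adjusted p = 1.02e-11, 23.7% of genes called) and -0.77 ± 0.060 at 8 h (adjusted p = 8.92e-12, 31.6% called). The difference of the responses themselves, tested as an interaction, was -0.87 ± 0.090 at 2 h (adjusted p = 1.81e-08, 13.2% of genes called) and -0.88 ± 0.090 at 8 h (adjusted p = 2.32e-08, 16.8% called). From 2 to 8 h the responses differed by -0.01 (95% interval -0.18 to 0.16, adjusted p = 0.966), in a comparison where 9% of genes were called. In each clone taken by itself the KO library was below the WT library, with log2 differences of -0.66, -0.85 and -0.76 at 2 h and of -0.80, -0.83 and -0.67 at 8 h in clones A, B and C. Without the 3 libraries rich in the abundant genes the KO minus WT values were -0.76 at 2 h and -0.81 at 8 h.

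**Figure D1:**
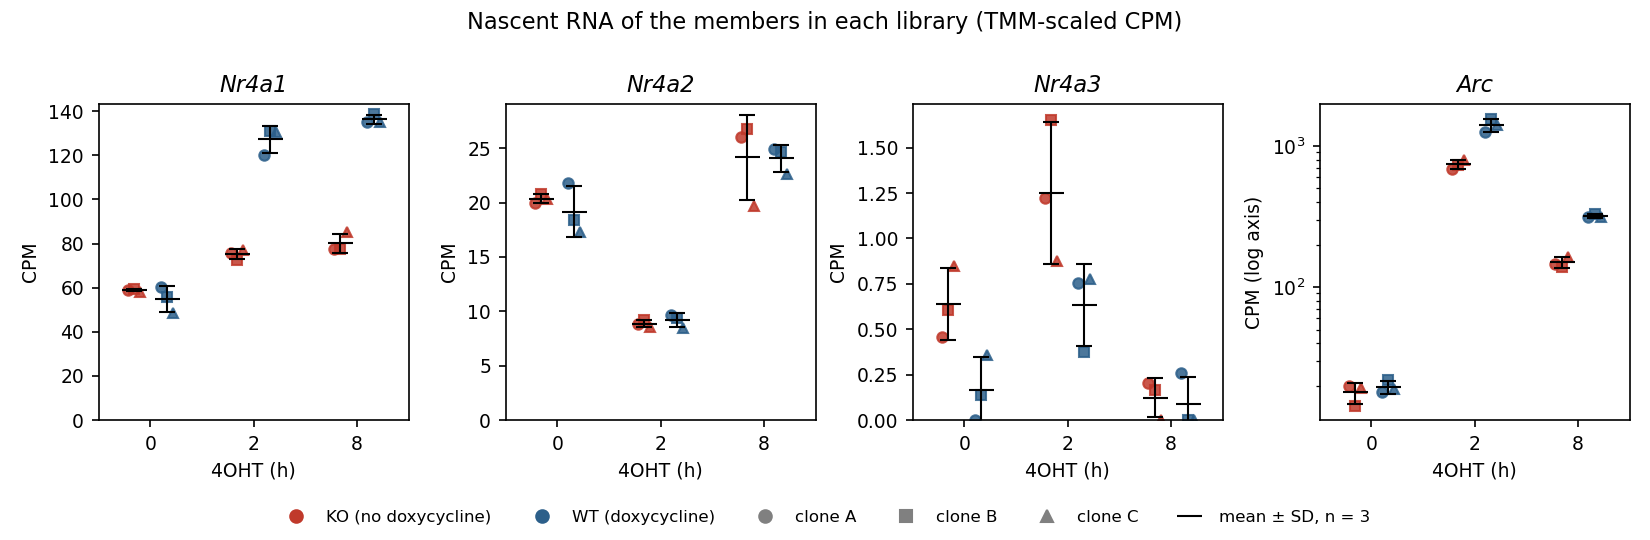
TMM-scaled CPM of Nr4a1, Nr4a2, Nr4a3 and Arc (Arc on a log axis) in each of the 18 libraries at 0, 2 and 8 h of 4OHT, KO in red and WT in blue, symbols giving the clone and black bars the mean ± SD of 3 libraries. Nr4a1 and Arc separate KO from WT at 2 and 8 h, Nr4a2 dips at 2 h in both, and Nr4a3 stays below 1.7 CPM.

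Nr4a2 moved the other way at 2 h, and its values in KO and WT cells lay close together at every time. In KO cells clones A, B and C read 20.0, 20.8 and 20.3 CPM at 0 h, 8.86, 9.21 and 8.55 CPM at 2 h and 26.0, 26.8 and 19.7 CPM at 8 h. In WT cells they read 21.8, 18.4 and 17.3 CPM at 0 h, 9.68, 9.38 and 8.43 CPM at 2 h and 24.9, 24.7 and 22.6 CPM at 8 h. All 6 libraries of 2 h were below all 12 libraries of the other times, and KO and WT libraries overlapped at each time.

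At 2 h over 0 h Nr4a2 fell by 1.20 ± 0.12 on the log2 scale in KO cells (2.30-fold, adjusted p = 5.54e-10) and by 1.07 ± 0.12 in WT cells (2.09-fold, adjusted p = 7.9e-09), by the same edgeR test. It came back by 8 h: the change of 8 h over 2 h was 1.47 ± 0.12 in KO cells (adjusted p = 1.19e-11, 57.1% of genes called) and 1.40 ± 0.12 in WT cells (adjusted p = 6.53e-12, 61% called). Its level at 8 h over 0 h was slightly higher, by 0.27 ± 0.11 in KO cells (adjusted p = 0.0291) and 0.33 ± 0.10 in WT cells (adjusted p = 0.00566). In KO cells the groups of 8 h and 0 h overlapped, since clone C at 8 h lay below all 3 libraries of 0 h. That KO call was lost with DESeq2 (0.28, adjusted p = 0.0522) and without KO 0 h clone A, KO 0 h clone C, KO 8 h clone A or KO 8 h clone B (0.21 to 0.27, adjusted p up to 0.159), and the WT call was lost without WT 0 h clone C (0.26, adjusted p = 0.057). With libraries scaled by totals alone the values were -0.09 in KO cells (adjusted p = 0.665) and 0.26 in WT cells (adjusted p = 0.187).

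No difference between KO and WT cells was called for Nr4a2, by edgeR or by DESeq2. The log2 difference was 0.09 at 0 h (95% interval -0.13 to 0.31, adjusted p = 0.631), -0.04 at 2 h (-0.34 to 0.25, adjusted p = 0.869) and 0.03 at 8 h (-0.18 to 0.23, adjusted p = 0.881). The responses differed by -0.13 at 2 h (95% interval -0.50 to 0.23, adjusted p = 0.695) and by -0.06 at 8 h (-0.36 to 0.24, adjusted p = 0.817). These intervals do not reach the interaction values found for Nr4a1. They leave room for a smaller difference in either direction.

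Nr4a3 was barely transcribed in these cells. In KO cells clones A, B and C held 4, 6 and 7 reads at 0 h, 8, 14 and 8 reads at 2 h and 2, 1 and 0 reads at 8 h. In WT cells they held 0, 1 and 3 reads at 0 h, 6, 3 and 7 reads at 2 h and 4, 0 and 0 reads at 8 h. The counts were highest at 2 h in both kinds of cell. Scaled to the libraries, the summed reads of 2 h over 0 h gave a ratio of 1.96 in KO cells (exact 95% counting interval 1.05 to 3.79, 30 against 17 reads) and 3.77 in WT cells (1.22 to 15.5, 16 against 4 reads). The ratio of 8 h over 2 h was 0.117 in KO cells (0.0228 to 0.375) and 0.196 in WT cells (0.0477 to 0.608). KO over WT was 3.72 at 0 h (1.21 to 15.2), 1.94 at 2 h (1.02 to 3.81) and 1.15 at 8 h (0.169 to 6.82). These intervals leave out the spread between clones. In an edgeR fit with no filter on low counts (19985 genes), Nr4a3 was called at 8 h over 2 h in KO cells (adjusted p = 0.000192) and in WT cells (adjusted p = 0.00998), at 8 h over 0 h in KO cells (adjusted p = 0.0388) and at 2 h over 0 h in WT cells (adjusted p = 0.0408). KO and WT cells did not differ past the threshold there (adjusted p = 0.12 at 0 h, 0.228 at 2 h and 0.987 at 8 h).

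Arc had the largest change of the 4 genes. In KO cells clones A, B and C read 20.0, 14.4 and 19.3 CPM at 0 h, 688, 737 and 790 CPM at 2 h and 146, 138 and 163 CPM at 8 h. In WT cells they read 17.9, 21.9 and 19.1 CPM at 0 h, 1257, 1559 and 1399 CPM at 2 h and 311, 330 and 314 CPM at 8 h. The times did not overlap within either kind of cell. KO and WT overlapped at 0 h, and every KO library was below every WT library at 2 and 8 h.

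At 2 h over 0 h the log2 fold change of Arc was 5.38 ± 0.10 in KO cells (41.5-fold, adjusted p = 6.3e-28) and 6.17 ± 0.10 in WT cells (71.8-fold, adjusted p = 2.52e-29). It ranked 24 from the highest of 14128 genes in KO cells and likewise in WT cells. By 8 h Arc had come down again, with 8 h over 2 h at -2.31 ± 0.081 in KO cells (adjusted p = 8.3e-21) and -2.14 ± 0.076 in WT cells (adjusted p = 7.14e-21). It still stood above 0 h, by 3.06 ± 0.10 in KO cells (8.36-fold) and 4.02 ± 0.10 in WT cells (16.3-fold).

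KO minus WT for Arc was -0.14 ± 0.13 at 0 h (95% interval -0.41 to 0.14, adjusted p = 0.544), -0.93 ± 0.073 at 2 h (adjusted p = 1.14e-11) and -1.10 ± 0.080 at 8 h (adjusted p = 2.53e-12). Without KO clone B the value at 0 h was 0.00. The interaction was -0.79 ± 0.15 at 2 h (adjusted p = 0.000355) and -0.96 ± 0.16 at 8 h (adjusted p = 4.43e-05), while the step of 2 to 8 h differed by -0.17 ± 0.11 (95% interval -0.39 to 0.05, adjusted p = 0.381). Within clones the difference was -0.87, -1.08 and -0.82 at 2 h and -1.09, -1.26 and -0.94 at 8 h in A, B and C. Without the 3 libraries rich in the abundant genes it was -0.87 at 2 h and -1.12 at 8 h.

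Markers of other cell types moved with some of these differences. The 11 neuronal markers summed to 130 to 142, 158 to 171 and 152 to 165 CPM in KO libraries at 0, 2 and 8 h, and to 184 to 198, 232 to 246 and 205 to 217 CPM in WT libraries, so that they were lower in KO cells also at 0 h, where Nr4a1 and Arc did not differ past the threshold. Of these markers Tubb3, Slc17a6 and Dcx were under 1 CPM in every group, and 6 to 8 markers, depending on the group, were not under 1 CPM. How the sums divide among them is not given here. The 5 trophectoderm markers summed to 112 to 114, 91.4 to 114 and 361 to 396 CPM in KO libraries and to 84.8 to 88.1, 332 to 352 and 517 to 557 CPM in WT libraries, with Elf5 under 1 CPM in every group and Cdx2 under 1 CPM in KO cells at 0 and 2 h and in WT cells at 0 h, and above it in the other groups. The 6 primitive endoderm markers summed to 55.2 to 68.1, 33.8 to 44.3 and 23.8 to 29.1 CPM in KO libraries and to 30.6 to 31.8, 16.9 to 26.4 and 8.93 to 9.61 CPM in WT libraries, with Foxa2 under 1 CPM in every group. The part of other cell types in the results was not tested, and fewer cells making a gene cannot be told apart from less RNA per cell.

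**Figure D2:**
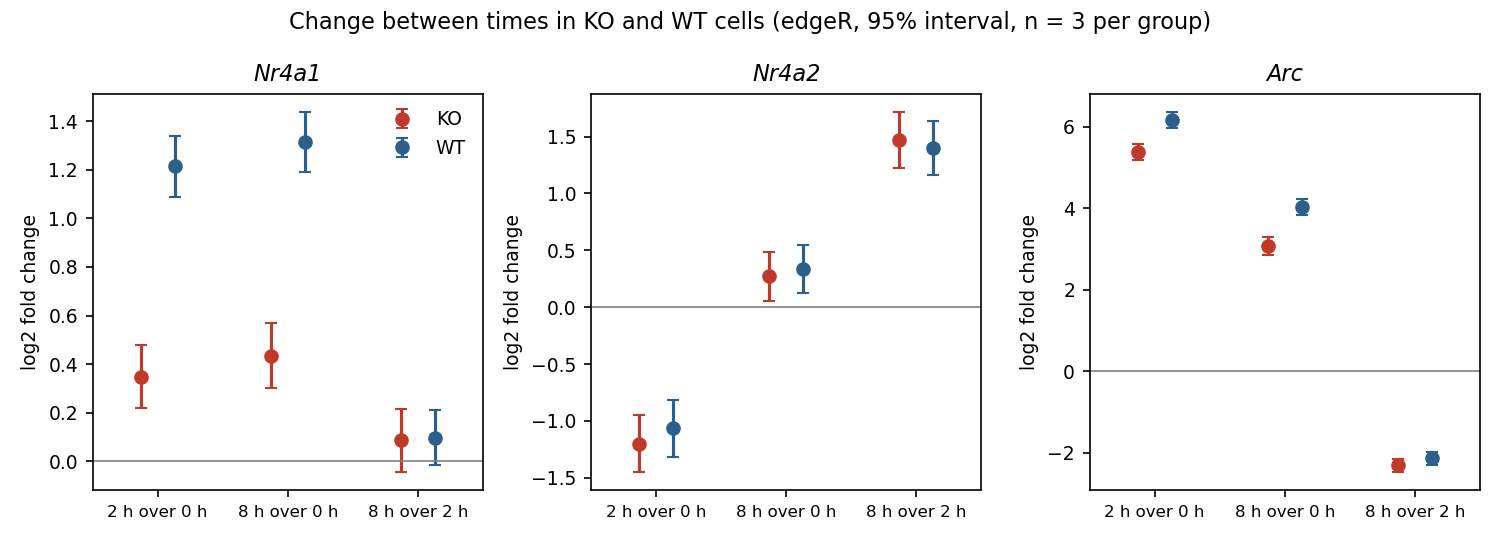
Log2 fold change between times for Nr4a1, Nr4a2 and Arc in KO (red) and WT (blue) cells, as points with 95% intervals from the edgeR fit (n = 3 per group). The KO intervals lie below the WT intervals for Nr4a1 and Arc at 2 h and 8 h over 0 h, and overlap for Nr4a2 in each comparison.

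Ratios of reads between members within a library do not depend on how libraries are scaled. The Nr4a1 to Nr4a2 ratio was 2.95, 2.86 and 2.87 at 0 h, 8.55, 7.88 and 9.0 at 2 h and 2.98, 2.90 and 4.32 at 8 h in KO clones A, B and C. In WT clones it was 2.76, 3.04 and 2.81 at 0 h, 12.4, 14.0 and 15.5 at 2 h and 5.43, 5.62 and 5.97 at 8 h. The ratio was lower in every KO library than in every WT library at 2 and at 8 h, where an exact two-sided permutation test of 3 against 3 cannot go below p = 0.10. The Arc to Nr4a1 ratio was 0.339, 0.242 and 0.332 at 0 h, 9.09, 10.1 and 10.3 at 2 h and 1.89, 1.78 and 1.92 at 8 h in KO cells, and 0.297, 0.392 and 0.393, then 10.5, 11.9 and 10.7, then 2.30, 2.38 and 2.33 in WT cells. That ratio changed far more over time than between KO and WT cells.

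**Figure D3:**
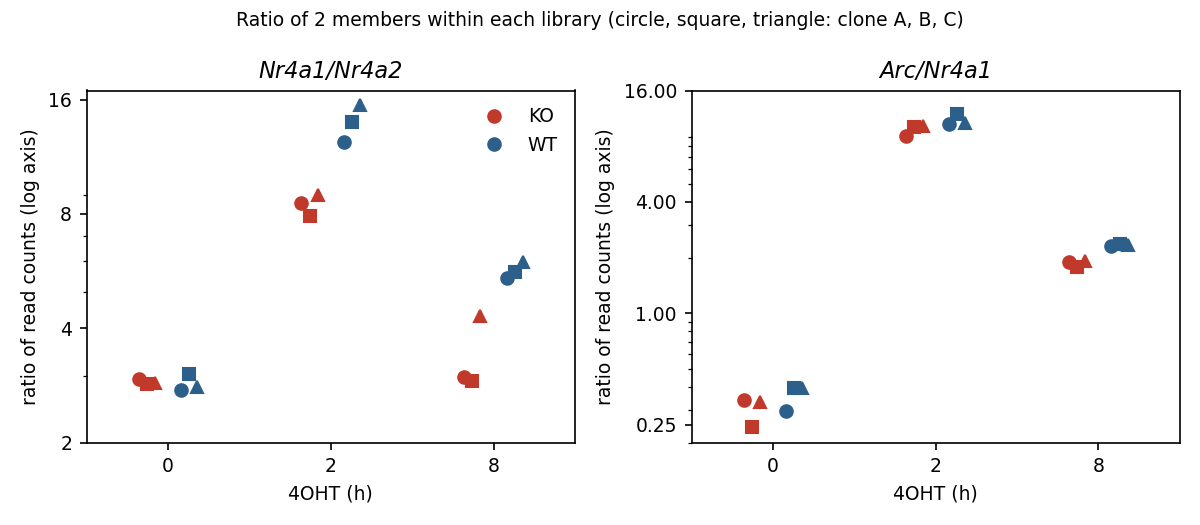
Ratio of read counts of 2 genes within each library (log axes) at 0, 2 and 8 h of 4OHT, KO in red and WT in blue, with circle, square and triangle for clones A, B and C. The Nr4a1 to Nr4a2 ratio at 2 h is 7.88 to 9.0 in KO and 12.4 to 15.5 in WT libraries, and the Arc to Nr4a1 ratio at 8 h is 1.78 to 1.92 in KO and 2.30 to 2.38 in WT libraries.

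Levels of the genes can be compared with each other only per length. Per kb of annotated exon, KO cells at 0 h made most Nr4a1 (16.8 ± 0.19 CPM per kb), then Arc (5.86 ± 0.99) and Nr4a2 (5.02 ± 0.10), which overlapped, and least Nr4a3 (0.107 ± 0.033). WT cells at 0 h had the same order, with 15.6 ± 1.7, 6.42 ± 0.66, 4.72 ± 0.58 and 0.0278 ± 0.030 CPM per kb. At 2 h Arc came to the top, with 242 ± 17 CPM per kb in KO cells and 460 ± 49 in WT cells, above Nr4a1 at 21.4 ± 0.63 in KO cells and 36.3 ± 1.8 in WT cells and Nr4a2 at 2.19 ± 0.082 in KO cells and 2.26 ± 0.16 in WT cells. It was still the highest at 8 h, at 48.8 ± 4.2 CPM per kb in KO cells and 104 ± 3.2 in WT cells. Whether reads in introns were counted is not given in the sources used here, so lengths of exons may not be the lengths that gave the counts.

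The genes whose log2 CPM ran most like a member's over the 18 libraries are given as a description, since these libraries form only 6 groups and share their scaling. For Arc they were Midn, Dusp2, Fhl3, Egr3 and Reep3 (Pearson r = 0.994, 0.992, 0.988, 0.987 and 0.986). Dusp2 is a phosphatase of MAP kinases and Egr3 an immediate early zinc finger factor. At 0 h Dusp2 averaged 0.151 CPM in KO and 0.126 CPM in WT cells, and Egr3 0.038 and 0 CPM. Their log2 CPM at 0 h, and so their r, therefore depend on the prior count. Dusp2 averaged over 5 CPM only at 2 h and in WT cells at 8 h. Midn averaged 68.5 ± 0.38, 485 ± 24 and 206 ± 28 CPM in KO cells at 0, 2 and 8 h and 70.4 ± 5.1, 727 ± 74 and 258 ± 11 CPM in WT cells, which has the peak at 2 h seen for Arc. For Nr4a1 they included Smtn, Wipf3, Lrp8 and Shkbp1 (r = 0.984, 0.979, 0.978 and 0.976), none of them on the list of activity-dependent genes. Smtn, which encodes the cytoskeletal protein smoothelin, averaged 40.2 ± 3.8, 78.4 ± 5.0 and 76.1 ± 9.3 CPM in KO cells and 37.1 ± 5.0, 198 ± 16 and 179 ± 11 CPM in WT cells, with little change after 2 h. For Nr4a2 they were Tada2a, Vangl1, Srl, Agpat5 and Gfm2 (r = 0.980, 0.971, 0.969, 0.967 and 0.967). Srl, for sarcalumenin, averaged 33.0 ± 0.78, 11.6 ± 0.56 and 34.4 ± 3.7 CPM in KO cells and 34.8 ± 3.0, 12.7 ± 1.3 and 37.6 ± 2.5 CPM in WT cells, a dip at 2 h in both. Between members r was 0.778 for Nr4a1 with Arc, -0.161 for Nr4a1 with Nr4a2 and -0.642 for Nr4a2 with Arc. The likeness of Nr4a3 is left out because its values rest on 0 to 14 reads.

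The members were then set beside other activity-dependent genes, of which 38 of 45 listed were tested. At 2 h over 0 h 32 rose and 5 fell in KO cells (median log2 fold change 1.42, against -0.05 for all genes, of which 31.5% rose and 35.2% fell). In WT cells 32 rose and 5 fell as well (median 2.00, against -0.02 for all genes, of which 32.4% rose and 33.8% fell). Among those with the smallest p in WT cells, Dusp5, an ERK phosphatase, changed by 2.79 ± 0.080 in KO cells and 4.37 ± 0.078 in WT cells, and Fosl2, an AP-1 subunit, by 3.39 ± 0.11 in KO cells and 5.65 ± 0.11 in WT cells. Arc in WT cells was below only 2 of the 38 genes, Nr4a1 below 24 and Nr4a2 below 37. In KO cells Arc was below 2, Nr4a1 below 29 and Nr4a2 below 36. Nr4a2 was thus among the few that fell, with Gadd45b, Gadd45g, Bdnf and Sik1, which fell in both kinds of cell, Nfil3 in KO cells and Klf4 in WT cells. These are named because of their values. With libraries scaled by totals alone, 24 rose and 5 fell in KO cells.

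KO minus WT at 2 h, 3 of the 38 genes were higher and 24 lower (median -0.44, against 0.00 for all genes, of which 10.8% were higher and 12.9% lower). Dusp5 (-1.57 ± 0.060), Pim1, a survival kinase (-1.55 ± 0.069), and Junb, an AP-1 subunit (-1.32 ± 0.061), were lower in KO cells, and Jun, another AP-1 subunit, was higher (1.57 ± 0.065), as were Klf4 (0.60) and Atf3 (0.83), named because of their values. In KO cells Jun averaged 207 ± 4.6 CPM at 2 h, against 69.7 ± 8.5 CPM in WT cells. Atf3 stood higher in KO cells already at 0 h, with 7.17 ± 0.45 CPM against 1.29 ± 0.72 CPM in WT cells. Arc, at -0.93, was below 25 of these genes and Nr4a1, at -0.76, below 24, so neither stood at an end of the list, and Nr4a2 was below 10. For the difference of the 2 h responses 3 genes were higher (Klf4, Jun and Egr1) and 19 lower (median -0.52, against -0.01 for all genes, of which 6.6% were higher and 6.6% lower). Egr1 averaged less in KO than in WT cells at 0 h (16.5 ± 1.5 against 44.6 ± 2.9 CPM) and also at 2 h (2610 ± 78 against 3530 ± 280 CPM). At 8 h 4 of the 38 genes were higher and 24 lower in KO cells, against 14.5% and 17.1% of all genes. At 0 h 6 were higher and 3 lower, against 6.81% and 9.64% of all genes. This 0 h count was 4 higher and 3 lower with DESeq2, and 2 higher and 3 lower with libraries scaled by totals alone. Without the 3 libraries rich in the abundant genes the counts were 4 higher and 23 lower at 2 h, and 4 higher and 19 lower for the 2 h response.

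**Figure D4:**
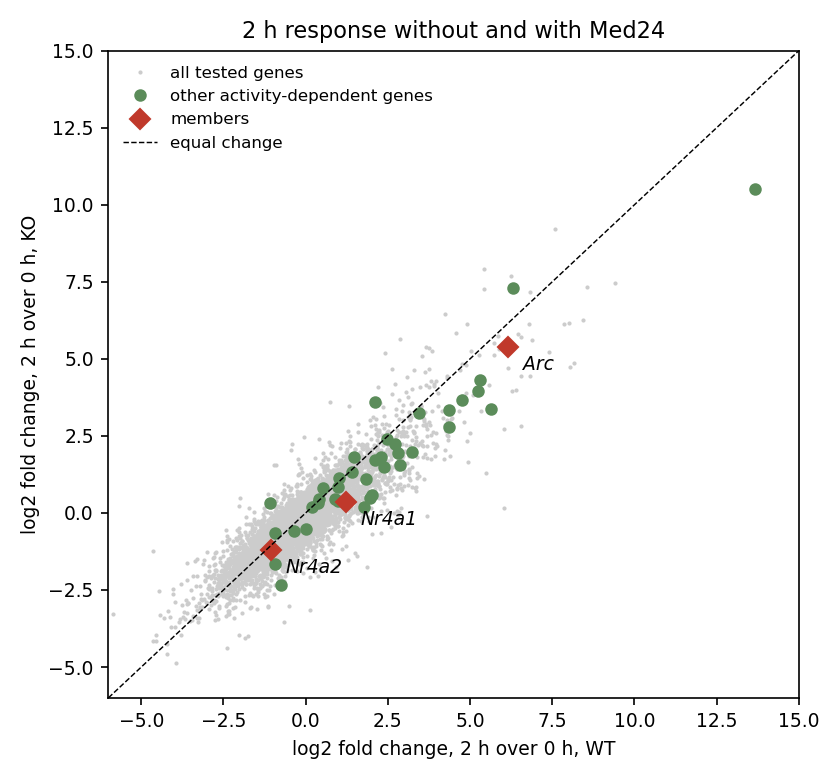
Log2 fold change of 2 h over 0 h in KO cells (y axis) against WT cells (x axis) for all tested genes (grey), the other activity-dependent genes (green) and Nr4a1, Nr4a2 and Arc (red), with a dashed line for equal change. Nr4a1 and Arc lie below the line and Nr4a2 near it at the lower left. The green point at the upper right is Egr3, whose WT libraries held no reads at 0 h, so its position depends on the prior count.

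Among other nuclear receptors, 33 of 46 listed were tested. At 2 h over 0 h 8 rose and 12 fell in KO cells and 7 rose and 15 fell in WT cells. The share of receptors called was thus no higher than that of all genes in KO cells (66.6%) and near that of all genes in WT cells (66.2%). With libraries scaled by totals alone 4 rose and 15 fell in KO cells, and 3 rose and 15 fell in WT cells. Nr2f6, an orphan receptor of the COUP family, rose by 2.53 ± 0.11 in KO cells and 2.31 ± 0.12 in WT cells, whereas Esrrb, an orphan receptor of the naive pluripotent state, changed by -1.21 ± 0.060 in KO cells and -1.77 ± 0.061 in WT cells. Nr4a1 in WT cells at 2 h was above 30 of the 33 receptors, and Nr4a2 was below 28 of them. KO minus WT at 2 h, 5 receptors were higher, which were Nr6a1 (0.44 ± 0.078), Esrrb (0.40 ± 0.062), Nr5a2 (0.34 ± 0.062), Nr2f6 (0.32) and Rxra (0.25), and 1 was lower, the clock repressor Nr1d1 (-0.76 ± 0.20, adjusted p = 0.00446). Nr4a1, also lower in KO cells, was below 31 of the 33. Of all genes, 10.8% were higher and 12.9% lower in KO cells at 2 h. The 5 receptors that were higher in KO cells were not called with libraries scaled by totals alone. At 8 h 4 receptors were higher and 5 lower, beside 14.5% and 17.1% of all genes. With the smallest p of those lower at 8 h was Rxrg, a retinoid X receptor, at -1.92 ± 0.28 (adjusted p = 2.75e-06), with 1.73 ± 0.55 CPM in KO cells and 6.02 ± 0.69 CPM in WT cells.

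Of the coregulators and partners of NR4A proteins, all 11 were tested. From 0 to 2 h 6 rose and 2 fell in KO cells, and 4 rose and 2 fell in WT cells, beside 66.6% of all genes called in KO cells and 66.2% in WT cells. When totals alone set the scale, 3 rose and 2 fell in KO cells. The corepressor subunit Rcor1 changed by 1.24 in KO cells and 1.07 in WT cells, and its partner the demethylase Kdm1a by 0.51 in KO cells and 0.34 in WT cells. KO minus WT at 2 h, the corepressor Ncor1 (0.26), the coactivator Ncoa2 (0.17), Kdm1a (0.17) and the dimer partner Rxra (0.25) were higher in KO cells. With TMM, 10.8% of all genes were higher in KO cells at 2 h. None of these 4 was called with libraries scaled by totals alone.

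A further list held kinases, transcription factors and cofactors from families with known regulators of NR4A or Arc transcription. They include CREB and its coactivators, SRF and its partners, MEF2 and class IIa histone deacetylases. Whether each listed gene acts on these members was not tested. Of this list, 26 of 27 genes passed the filter on low counts. After 2 h of 4OHT 15 rose and 7 fell in KO cells, beside 31.5% of all genes that rose and 35.2% that fell. In WT cells 14 rose and 8 fell, beside 32.4% and 33.8% of all genes. With libraries scaled by totals alone 8 rose and 10 fell in KO cells, and 9 rose and 8 fell in WT cells. The ERK-activated kinase Rps6ka3 changed by 2.15 in KO cells and 1.87 in WT cells, and the CREB coactivator Crtc1 by 0.80 in KO cells and 0.91 in WT cells. Between KO and WT cells 8 were lower in KO cells at 0 h, beside 9.64% of all genes, but 5 with DESeq2 and 0 with libraries scaled by totals alone. At 2 h Hdac5, Crtc1, Elk3 and Hdac4 were lower and Mef2b was higher in KO cells, beside 12.9% of all genes lower and 10.8% higher. The largest of these at 2 h was Hdac5, a class IIa deacetylase that represses MEF2 targets, with 89.0 ± 4.7 CPM in KO cells and 142 ± 5.9 CPM in WT cells. Its KO minus WT value was -0.67 ± 0.057 at 2 h (adjusted p = 6.52e-11) and the difference of its 2 h responses -0.76 ± 0.088 (adjusted p = 1.66e-07). Creb1, Srf and Elk1 were not called between KO and WT cells at 2 h. For none of these lists was activity of the proteins measured.

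Of genes whose proteins bind or process Arc, 14 of 16 were tested, and Gria1 and Gria2, subunits of the AMPA receptor, were at most at 1.17 CPM in any library. After 2 h of 4OHT 8 rose and 4 fell in KO cells and 8 rose and 3 fell in WT cells, where 66.6% of all genes were called in KO cells and 66.2% in WT cells. Scaling by totals alone gave 2 that rose and 5 that fell in KO cells, and 2 that rose and 3 that fell in WT cells. KO minus WT at 2 h, the postsynaptic scaffold Dlg4 (-0.66), the endophilin Sh3gl3 (-0.60) and Notch1 (-0.16) were lower and the ubiquitin ligase Ube3a (0.32) was higher in KO cells. Of all genes, 12.9% were lower and 10.8% higher in KO cells at 2 h. Camk2a, a kinase that binds Arc, was lower in KO cells at 8 h (-1.30, adjusted p = 1.09e-05). Of other genes that descend from retrotransposon Gag sequences, as Arc does, 6 of 15 were tested. Peg10 changed at 2 h over 0 h by 1.72 in KO cells and 1.46 in WT cells, Rtl1 by 1.26 in KO cells and 1.24 in WT cells, and Pnma2 by -2.32 in KO cells and -2.43 in WT cells.

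Within 100 kb of a member, 10 other genes were tested, and none of them near Nr4a2. Grasp, which encodes a postsynaptic scaffold protein and lies 21.5 kb from Nr4a1, averaged 13.1 ± 1.5, 17.1 ± 3.0 and 14.8 ± 1.3 CPM in KO cells at 0, 2 and 8 h and 16.9 ± 0.55, 46.2 ± 1.3 and 23.8 ± 1.4 CPM in WT cells. It peaked at 2 h and had come down at 8 h in WT cells, where Nr4a1 did not come down. The difference of its 2 h responses was -1.06 ± 0.15 (adjusted p = 7.94e-06), and at 8 h -0.34 ± 0.16 (adjusted p = 0.156). Atg101, an autophagy gene 9.48 kb from Nr4a1, differed less, with -0.34 ± 0.11 at 2 h (adjusted p = 0.0289) and -0.33 ± 0.11 at 8 h (adjusted p = 0.0376). Atg101 was higher in KO cells at 0 h (0.24 ± 0.078, adjusted p = 0.0332). It was not called between KO and WT cells at 2 h (-0.10, adjusted p = 0.339) or 8 h (-0.09, adjusted p = 0.419). For Acvr1b, an activin receptor 40.6 kb away, neither difference of responses was called.

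On the Arc side, Adgrb1, an adhesion receptor 79.6 kb away, averaged 7.15 ± 1.1 CPM at 2 h and 8.18 ± 0.55 CPM at 8 h in KO cells, and 16.3 ± 1.4 CPM at 2 h and 19.7 ± 3.3 CPM at 8 h in WT cells. It showed no peak at 2 h and was lower in KO cells already at 0 h (-0.46 ± 0.15, adjusted p = 0.0279). KO minus WT was -1.18 ± 0.15 at 2 h (adjusted p = 3.7e-07) and -1.31 ± 0.15 at 8 h (adjusted p = 2.47e-08), and the responses differed by -0.71 ± 0.21 at 2 h (adjusted p = 0.0236) and -0.84 ± 0.21 at 8 h (adjusted p = 0.00559). Stx17, a syntaxin 38.5 kb from Nr4a3, was higher in KO cells at 2 h (0.69 ± 0.18, adjusted p = 0.00464). Over all 10 neighbours 1 was higher and 4 lower in KO cells at 2 h, where 23.7% of all genes were called. For the 2 h response 3 were lower (Grasp, Atg101 and Adgrb1), beside 6.6% of all genes. Whether the reads of these neighbours bear on those of the members was not tested.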

How the data were processed

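The deposited table holds read counts per gene symbol for 18 libraries of nascent RNA, whole numbers that the authors did not normalize. Per the submitters' processing notes the tools were STAR, featureCounts and DESeq and the genome mm10. Strand setting, annotation and counting of introns are not stated there or in the labels, so overlapping or antisense reads cannot be told apart.

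Counts were fitted with edgeR 4.0.16 in R 4.3.3 (TMM, filterByExpr with min.count 10, quasi-likelihood, 6 group means, 12 comparisons, Benjamini-Hochberg at 0.05 over 14128 genes). CPM are TMM-scaled, with a prior count of 2 for log2 CPM. Intervals are 95%. Fits were tested on simulated data. Alternatives were DESeq2 1.42.0, scaling by totals, no filter, only the compared groups, a clone block, each library left out, and 2 chosen after the data were seen (without the 3 libraries rich in abundant genes, and scaling without those genes).

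The members and gene lists were chosen with earlier results of these data known. Named genes were the members, Med24, the 5 most alike per member (mean of at least 5 CPM), up to 4 per list and comparison with the smallest p, and genes within 100 kb; others are said to be named for their values. Of the genes so chosen, 2 are not reported here. Positions are from GENCODE M21, which held 98.7% of the symbols.

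Titles give clones A, B and C in every group, taken as the same clonal lines. Same-letter deviations from group means had a mean correlation of 0.0164 (range -0.101 to 0.0826, 45 pairs). For 15 of 18 libraries, the mean correlation with libraries of the other groups was highest for the library's own letter. Nothing says that clones were cultured independently, so p-values measure the spread between these libraries. No pair of replicates agreed within sampling noise.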

Additional observations from a re-analysis of the deposited data

Results flagged for a closer look

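The response to 4OHT differed between KO and WT cells for 2 of the 3 tested members, by the interaction test of edgeR. The difference of the log2 fold changes over 0 h was -0.87 at 2 h and -0.88 at 8 h for Nr4a1. It was -0.79 at 2 h and -0.96 at 8 h for Arc. All 4 values kept their direction and their call in each alternative run, with a range of -1.17 to -0.78 for Nr4a1 and of -1.27 to -0.70 for Arc. In the alternative without the 3 libraries rich in abundant genes, KO at 8 h is clone A alone, which is assumed there to vary like the other groups.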

How the results depend on the processing

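For the members, 36 values (3 genes in 12 comparisons) were recomputed in each alternative. All 36 kept direction and call with the clone letter as a replicate block, with no filter on low counts, with only the compared groups in the fit and with the abundant genes taken out before scaling. Under the replicate block, for example, the 2 h responses of KO and WT cells differed by -0.87 for Nr4a1 and -0.79 for Arc. With libraries scaled by totals alone, Nr4a1 in KO cells lost its call at 2 h (0.062) and 8 h (0.068) over 0 h, Nr4a2 lost its call at 8 h over 0 h in KO (-0.086, turned) and WT cells (0.26), and the uncalled Nr4a2 values turned for KO minus WT at 8 h (-0.22) and for the step of 2 to 8 h (-0.088). The median of all genes moved in that setting, to -0.33 at 2 h over 0 h in KO cells and -0.30 for the 8 h response, and the calls over all genes at 2 h over 0 h in KO cells were 21.2% higher ones, against 47.2% with TMM. The number of genes called was 420, against 2324 with TMM, for KO minus WT at 0 h, 1661 against 3350 at 2 h, 589 against 1866 for the 2 h response and 371 against 1271 for the step; counts in the gene lists moved by over 1.5 times in 63 of 144 cases, against 12 with DESeq2 and 20 without the 3 libraries. DESeq2 lost Nr4a2 at 8 h over 0 h in KO cells (0.28). Without the 3 libraries, the uncalled 8 h response of Nr4a2 turned to 0.022. Leaving out 1 library at a time kept 254 values, lost 5 calls and turned 11 values that were not called. The ranges of the others were 0.21 to 0.37 and 0.26 to 0.43 for Nr4a2 at 8 h over 0 h in KO and WT cells, -0.23 to 0.0012 for Arc and -0.037 to 0.12 for Nr4a2 in KO minus WT at 0 h and 8 h, -0.16 to 0.036 for the 8 h response of Nr4a2 and -0.049 to 0.027 for the step of Nr4a1. The causes were not tested.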
